A study of Ovis aries with 8 samples.

Results

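Genes of tryptophan breakdown and NAD synthesis were examined in the liver of 8 Assaf lambs, sampled before weaning, that received milk replacer in 2 amounts. Members were the rows of the deposited table whose symbol equals one of 10 listed genes, and 9 of them (ACMSD, TDO2, KMO, KYNU, HAAO, QPRT, NMRK2, NAMPT and TPH1) were found among 27729 genes. The symbol NNMT is not a row of the table. The RES group, lambs RES 1 to RES 4, was fed a restricted amount of 120 mL of milk replacer per kg and was slaughtered at 33 to 36 days of age weighing 7.5 to 8.7 kg. The ADL group, lambs ADL 1 to ADL 4, had milk replacer ad libitum (192 mL per kg) and was slaughtered at 33 to 36 days weighing 10.4 to 12.45 kg. Each library of polyadenylated RNA came from 1 lamb, and levels are the authors' TPM, an abundance unit in which reads are scaled to gene length and library total. The genes were listed together because some of them differed between RES and ADL in these same lambs, so that their values in this contrast are a description and support nothing by themselves.

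Tryptophan that is not used for protein is broken down in the liver mainly through the kynurenine pathway. TDO2 opens the indole ring, KMO, KYNU and HAAO then carry the product to an unstable semialdehyde, and at that point the route forks. ACMSD decarboxylates the semialdehyde and sends the carbon towards oxidation, whereas the uncatalysed closure of its ring gives quinolinate, which QPRT turns into a precursor of NAD. NAD is also rebuilt from nicotinamide by NAMPT and from nicotinamide riboside by NMRK1 and NMRK2. TPH1 takes tryptophan in another direction, to serotonin, and is best known from gut enterochromaffin cells and the pineal gland. A high ratio of ACMSD activity to QPRT activity is classically held to limit how much tryptophan becomes NAD.

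Between 15134039 and 17879918 reads per lamb were assigned to genes. Hepatocyte markers summed to 96500 to 178000 TPM in RES and 99000 to 138000 TPM in ADL livers, and all 10 of these markers were read in every group. Most of that sum was ALB and FGB: ALB had 28700 TPM in RES 4 and 88700 to 112000 TPM in the other RES lambs, against 31100 TPM in ADL 3 and 44100 to 78500 TPM in the other ADL lambs. FGB, a fibrinogen chain, was highest in the same 2 lambs, at 39800 TPM in RES 4 and 53600 TPM in ADL 3. One lamb stood apart from its group. On the first principal component of all tested genes (38.1% of the variance), RES lambs lay between -20.6 and -14.8, ADL 1, ADL 2 and ADL 4 between 34.3 and 46.2, and ADL 3 at -46.3. The members' fold changes are therefore given with and without ADL 3. Both ADL 3 and, further on, RES 4 were singled out by their values in these same data. Leaving out a lamb because it lies apart narrows the spread within its group, which tends to lower p-values by itself. P-values without ADL 3, or without ADL 3 and RES 4, are therefore descriptions and not independent tests. The ± sign stands for 1 SD over the 4 lambs of a group unless stated. In bulk liver, fewer cells of a type and less RNA per cell cannot be told apart.

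ACMSD and TPH1 were the 2 members in which no RES value overlapped an ADL value, and they lay in opposite directions, ACMSD low and TPH1 high in RES. TDO2 averaged lower in RES and KYNU higher, with overlap between the groups through ADL 3, and NMRK2 was read only in 3 ADL lambs. KMO, HAAO, QPRT and NAMPT overlapped broadly between the groups. Of all 13812 genes tested, 4.48% had groups that did not overlap, and nothing is read from the members' 2 of 9, since they were chosen on this contrast.

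**Figure D1:**
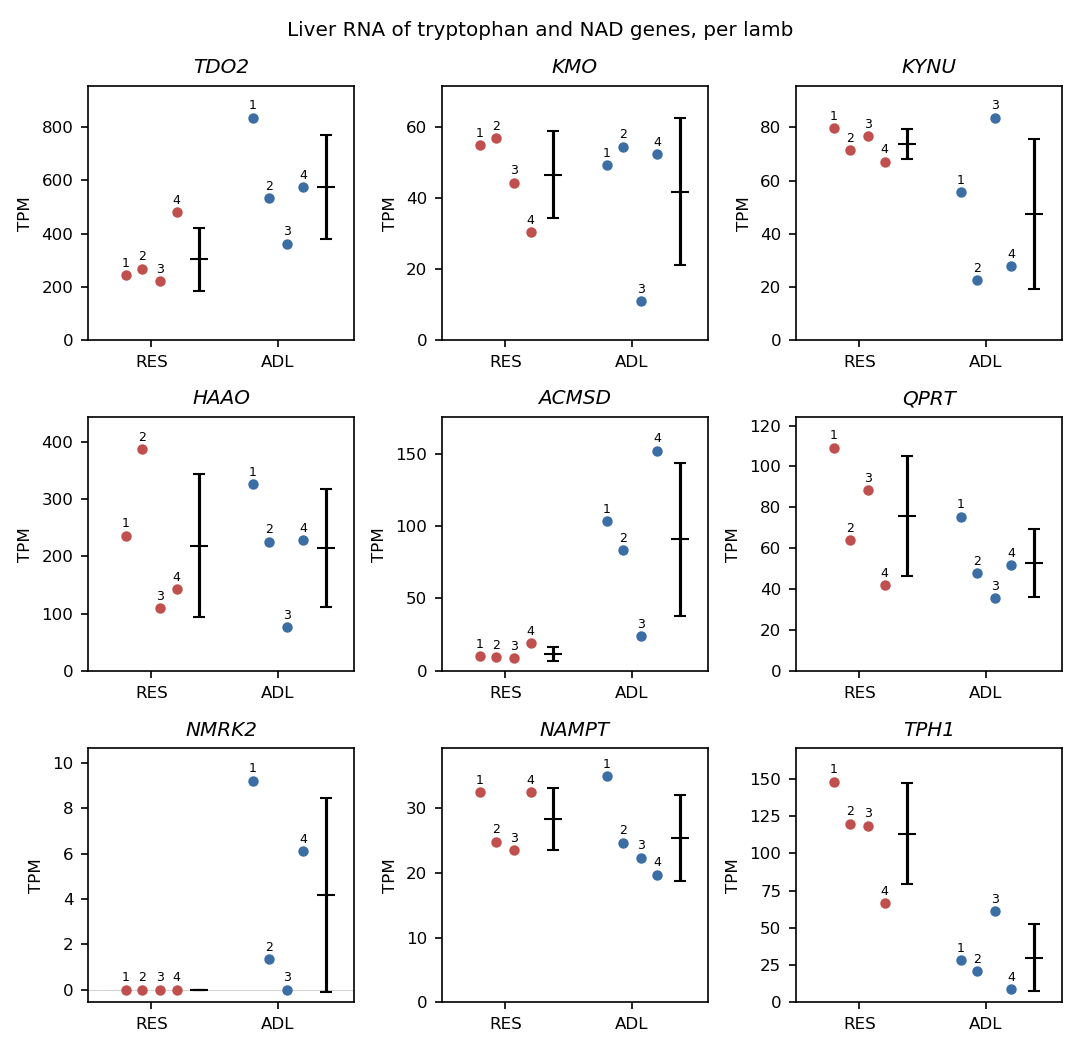
TPM of the 9 genes in each lamb (points, numbered by lamb; RES left and red, ADL right and blue), with the group mean and SD (n = 4 each) as a black bar beside them. RES lambs sit at 8.54 to 19.0 TPM of ACMSD and ADL lambs at 23.7 to 152 TPM, and ADL 3 lies below the other ADL lambs in 6 of the 9 genes and above them in KYNU and TPH1.

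The first step of the pathway had the highest mean level of the members in both groups, although HAAO exceeded it in RES 2 (387 TPM). TDO2, on chromosome 17 at 43034811 to 43052325 in the coordinates of the deposited table (12 exons), had 243, 268, 223 and 479 TPM in RES 1 to RES 4, against 833, 533, 362 and 573 TPM in ADL 1 to ADL 4. RES 1, RES 2 and RES 3 lay below every ADL value, and RES 4 lay above ADL 3. TDO2 averaged 303 ± 119 TPM in RES and 575 ± 195 TPM in ADL. The log2 fold change, RES over ADL on log2(TPM + 0.5), was -0.93 (SE 0.31), with a limma p adjusted over all genes of 0.382. Without ADL 3 it was -1.13 (SE 0.29, limma adjusted p = 0.0456), and without both ADL 3 and RES 4 it was -1.37 (SE 0.20, limma adjusted p = 0.0106). The adjusted p without ADL 3 was 0.08 after the libraries had also been rescaled by median of ratios, which sets the median gene to the same level in each lamb.

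IDO2, a second enzyme for the same ring opening, was set beside TDO2 after its values had been seen. It averaged 108 ± 19.0 TPM in RES and 106 ± 24.2 TPM in ADL. The ratio of TDO2 to IDO2 in TPM was thus 3.01, 2.18, 2.06 and 4.03 in RES 1 to RES 4, against 6.08, 4.80, 3.76 and 7.17 in ADL 1 to ADL 4. Here too RES 4 and ADL 3 crossed over.

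The middle of the pathway showed no common direction. KMO, the hydroxylase of kynurenine on chromosome 12 at 33248795 to 33317791 (15 exons), had 55.0, 56.9, 44.4 and 30.5 TPM in RES 1 to RES 4, against 49.3, 54.6, 11.0 and 52.5 TPM in ADL 1 to ADL 4. Every value but those of ADL 3 and RES 4 lay between 44.4 and 56.9 TPM. RES over ADL, its log2 fold change of 0.35 had an SE of 0.48 (limma adjusted p = 0.847), and without ADL 3 it turned to -0.20 (SE 0.21).

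KYNU cleaves kynurenine and 3-hydroxykynurenine and lies on chromosome 2 at 165980480 to 166103036 (14 exons). It had 79.8, 71.5, 76.6 and 67.2 TPM in RES 1 to RES 4, against 55.6, 22.6, 83.7 and 27.9 TPM in ADL 1 to ADL 4. The RES lambs were close to each other, with a highest value 1.19 times the lowest, whereas the ADL lambs spread 3.71-fold and ADL 3 lay above all RES lambs. The means were 73.8 ± 5.55 TPM in RES and 47.5 ± 28.2 TPM in ADL, with a log2 fold change of 0.82 (SE 0.36, limma adjusted p = 0.508). Without ADL 3 KYNU passed at 1.16 (SE 0.28, limma adjusted p = 0.0387), and without both ADL 3 and RES 4 it did not, at 1.20 (limma adjusted p = 0.0553). Macrophages also use this enzyme, and 9 macrophage markers summed to 1100 to 1280 TPM in RES and 928 to 1140 TPM in ADL (990 TPM in ADL 3). Their part in the KYNU values was not tested.

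HAAO, the dioxygenase that makes the unstable semialdehyde, lies on chromosome 3 at 81133752 to 81149558 (12 exons). It had 236, 387, 110 and 143 TPM in RES 1 to RES 4, against 325, 226, 76.9 and 228 TPM in ADL 1 to ADL 4. It spread 3.51-fold within RES and 4.23-fold within ADL, and the group means were nearly equal, at 219 ± 124 TPM in RES and 214 ± 103 TPM in ADL. Its log2 fold change of 0.04 (SE 0.49, limma adjusted p = 0.988) changed sign without ADL 3 (-0.39, SE 0.40), without RES 1 and without RES 2. KYNU and KMO act one after the other, and their ratio was 1.45, 1.26, 1.73 and 2.21 in RES 1 to RES 4, against 1.13, 0.413, 7.63 and 0.532 in ADL 1 to ADL 4. ADL 3 had the most KYNU and the least KMO of all lambs.

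At the fork, the 2 competing branches were read at very different proportions. ACMSD lies on chromosome 2 at 174847994 to 174910207 (12 exons), 8744957 bases beyond KYNU on the same chromosome. It had 10.0, 9.13, 8.54 and 19.0 TPM in RES 1 to RES 4, against 103, 83.4, 23.7 and 152 TPM in ADL 1 to ADL 4, read from 287 to 729 reads in each RES library. All RES lambs lay below all ADL lambs, but the gap between RES 4 and ADL 3 was narrow. The mean was 11.7 ± 4.93 TPM in RES and 90.6 ± 53.1 TPM in ADL, 7.76-fold lower in RES. On the log2 scale the fold change was -2.70 (SE 0.51; adjusted p = 0.182 in limma). Without ADL 3, ACMSD fell by 3.25 on the log2 scale (SE 0.30, limma adjusted p = 0.00223), and without ADL 3 and RES 4 by 3.50 (SE 0.22, limma adjusted p = 7.67e-04). The authors' deposited table lists a shrunken log2 fold change of -1.96 for ACMSD (SE 0.32, adjusted p = 1.88e-06) over all 8 lambs.

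QPRT, the enzyme of the branch to NAD, lies on chromosome 24 at 26499856 to 26515340 (3 exons). It had 109, 64.2, 88.4 and 42.0 TPM in RES 1 to RES 4, against 75.5, 47.8, 35.9 and 51.7 TPM in ADL 1 to ADL 4. The groups overlapped, with RES 4 inside the ADL range. With 8 lambs QPRT had a log2 fold change of 0.49 (SE 0.32; adjusted p = 0.678 in limma), and of 0.32 (SE 0.32) without ADL 3.

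The ratio of ACMSD to QPRT in the same liver, each per length, was 0.092, 0.142, 0.0965 and 0.453 in RES 1 to RES 4, against 1.37, 1.74, 0.66 and 2.94 in ADL 1 to ADL 4. ACMSD RNA was thus below QPRT RNA in every RES lamb and in ADL 3, and above it in ADL 1, ADL 2 and ADL 4. The mean ratio was 0.196 ± 0.173 in RES and 1.68 ± 0.954 in ADL (2.02 ± 0.821 in the 3 ADL lambs without ADL 3). These are ratios of RNA, and enzyme activity was not measured here. Against HAAO, which feeds the fork, the ratio of ACMSD was 0.0236 to 0.133 in RES and 0.308 to 0.665 in ADL. On this scale ADL 3 (0.308) lay close to ADL 1 (0.318) and ADL 2 (0.37), because ADL 3 was low in both genes.

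**Figure D2:**
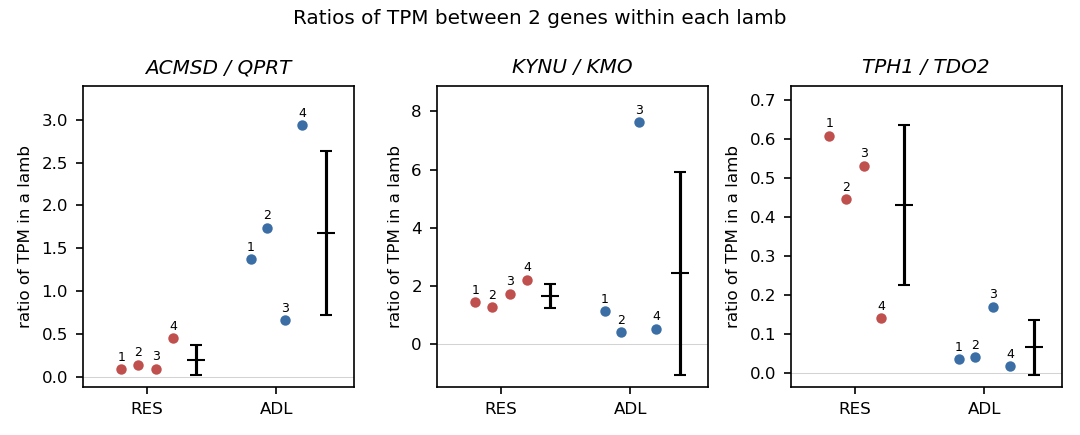
Ratio of the TPM of 2 genes within each lamb (points, numbered by lamb; RES left and red, ADL right and blue), with the group mean and SD (n = 4 each) as a black bar. ACMSD over QPRT lies at 0.092 to 0.453 in RES and 0.66 to 2.94 in ADL, KYNU over KMO is highest in ADL 3 at 7.63, and TPH1 over TDO2 lies at 0.139 to 0.609 in RES and 0.0156 to 0.169 in ADL.

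NAMPT and NMRK2 rebuild NAD from its breakdown products. NAMPT, the rate-limiting enzyme of nicotinamide salvage, lies on chromosome 4 at 47331520 to 47374685 (11 exons). It had 32.5, 24.9, 23.6 and 32.5 TPM in RES 1 to RES 4, against 34.9, 24.7, 22.4 and 19.8 TPM in ADL 1 to ADL 4. It was the steadiest of the members read in every lamb, with a highest value 1.77 times the lowest over the 8 lambs, and it was the 1 member in which ADL 3 lay within the range of the other ADL lambs. NAMPT had a log2 fold change of 0.17 (SE 0.21; adjusted p = 0.827 in limma), and of 0.12 (SE 0.21) without ADL 3.

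NMRK2, a nicotinamide riboside kinase known mainly from muscle, lies on chromosome 5 at 17569149 to 17573600 (7 exons). No read was assigned to it in RES 1 to RES 4, against 9.23, 1.36, 0 and 6.13 TPM in ADL 1 to ADL 4. It was therefore read in the 3 ADL lambs that lay together and in no other. A count of 0 allows up to 0.337 to 0.396 TPM in a RES library (3 reads per library, counting error only). Set against the mean of those limits, NMRK2 was at least 11.2-fold lower in RES than the mean of the 4 ADL lambs (4.18 ± 4.27 TPM). It was at least 15-fold lower than the mean of ADL 1, ADL 2 and ADL 4 (5.57 TPM). These bounds leave out the spread between the ADL lambs. Without ADL 1, the highest lamb, the bound against the mean of the other 3 ADL lambs was 6.7-fold. The limma adjusted p was 0.361 with 8 lambs and 0.0114 without ADL 3. The authors' deposited table lists a shrunken log2 fold change of -0.25 for NMRK2 over all 8 lambs (SE 0.19, DESeq2 adjusted p = 0.615). NMRK2 passed the filter on low values only through the ADL lambs, so a difference in it was built into its being tested. Of 10 skeletal muscle markers, 9 were under 1 TPM in every lamb, with 2 at 0 throughout, and their sum, mostly DES, was 9.05 to 16.4 TPM in RES and 8.06 to 13.8 TPM in ADL, with ADL 3 highest in its group. MB was at 0 in all lambs.

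TPH1, the first enzyme of serotonin synthesis outside the brain, lies on chromosome 15 at 33936711 to 33974002 (13 exons). It had 148, 120, 119 and 66.4 TPM in RES 1 to RES 4, against 28.4, 20.8, 61.3 and 8.93 TPM in ADL 1 to ADL 4. Every RES lamb was above every ADL lamb, and again RES 4 and ADL 3 were the closest pair. The mean was 113 ± 34.0 TPM in RES and 29.8 ± 22.4 TPM in ADL, 3.79-fold higher in RES. With 8 lambs the log2 fold change of TPH1 was 2.16 (SE 0.50, limma adjusted p = 0.274), and without ADL 3 it was 2.60 (SE 0.40, limma adjusted p = 0.0117). The authors' deposited table lists a shrunken log2 fold change of 1.15 for TPH1 (SE 0.34, adjusted p = 0.0325). Of the endocrine cell markers, CHGB was at 0 in all lambs and CHGA at 0.184 to 0.355 TPM in RES and 0.329 to 1.11 TPM in ADL. The 6 gut and pancreas markers they belong to summed to 0.56 to 6.21 TPM in RES and 1.13 to 3.4 TPM in ADL. The ratio of TPH1 to TDO2 was 0.609, 0.446, 0.532 and 0.139 in RES 1 to RES 4, against 0.034, 0.039, 0.169 and 0.0156 in ADL 1 to ADL 4, so that in every lamb the kynurenine entry enzyme remained the more abundant RNA.

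In the fit across all genes, 0 of 9 members passed an adjusted p of 0.05 with 8 lambs, where limma called 0.00724% of 13812 genes. At an unadjusted p under 0.05 the same fit had 5 members, ACMSD, TDO2, KYNU, NMRK2 and TPH1, against 9.70% of all genes. Without ADL 3, 5 of 9 passed, the same 5 genes, where 10.0% of 13815 genes were called. Of these, KYNU and TPH1 were higher in RES (2.42% of all genes were called higher) and ACMSD, TDO2 and NMRK2 lower (7.59% were called lower). Rescaling the libraries by median of ratios without ADL 3 changed the balance of all calls, from 334 higher and 1048 lower to 615 higher and 536 lower, and moved the median over all genes from a log2 fold change of -0.13 to 0.01. After it 4 members passed (8.33% of all genes), with TDO2 no longer among them. Without both ADL 3 and RES 4, 4 members passed (8.28% of all genes), with KYNU not among them. In the authors' deposited table ACMSD and TPH1 were the members with an adjusted p under 0.05, where 2.30% of the genes listed with one were.

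The median log2 fold change of the 9 members was 0.17, beside -0.04 for all genes, and without ADL 3 it was -0.20, beside -0.13. With 8 lambs ACMSD, TDO2 and NMRK2 had log2 fold changes below 0 and the other 6 members above 0. Without ADL 3 the groups did not overlap in 5 of 9 members, as they did not in 27.8% of all genes. Since the members were chosen on this contrast, nothing is read from these shares.

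**Figure D3:**
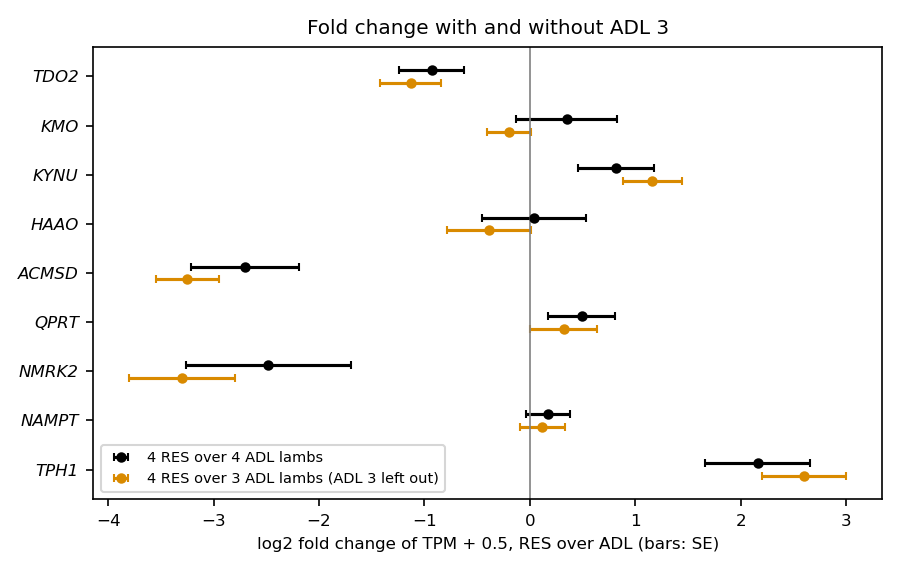
Log2 fold change of TPM + 0.5, RES over ADL, for the 9 genes (points; bars are SEs from limma), with 4 RES and 4 ADL lambs in black and with ADL 3 left out in orange. ACMSD lies at -2.70 and -3.25, TPH1 at 2.16 and 2.60, and KMO and HAAO change side when ADL 3 is left out.

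The order of the members by level differed between the groups mainly in ACMSD and TPH1. In RES livers the means ran from TDO2 and HAAO down to TPH1, QPRT, KYNU, KMO, NAMPT, ACMSD and NMRK2. Neighbours in that order overlapped over the lambs except KYNU and KMO, NAMPT and ACMSD, and ACMSD and NMRK2. In ADL livers ACMSD stood after TDO2 and HAAO, ahead of QPRT, KYNU, KMO, TPH1, NAMPT and NMRK2, and neighbours overlapped except TDO2 and HAAO, and NAMPT and NMRK2. By ADL means without ADL 3, KMO (52.1 TPM) stood above KYNU (35.4 TPM) and NAMPT (26.5 TPM) above TPH1 (19.4 TPM).

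ADL 3 and, less far, RES 4 lay outside the range of the other lambs of their groups in most members and in most of all genes tested. So did ADL 1, in 5 of 9 members and in 57.8% of all genes. Any 4 lambs have a highest and a lowest, so by this measure each lamb lies outside in many genes. On the first principal component RES 4, at -17.2, lay within the range of the other RES lambs. The counts below are therefore not particular to the members. RES 4 lay outside the range of the other RES lambs in 6 of 9 members, beside 2 to 4 for each of the others. Over all 13812 genes tested, that share was 59.7% for RES 4 and 42.7% to 50.1% for the other RES lambs. RES 4 was above them in ACMSD and TDO2 and below them in KMO, KYNU, QPRT and TPH1. ADL 3 lay outside the range of the other ADL lambs in 8 of 9 members, below them in 6 and above them in 2, beside 2 to 5 for each of the others. Over all genes tested, that share was 72.7% for ADL 3 and 30.6% to 57.8% for the other ADL lambs. ADL 3 was inside the RES range in 2 members, below it in 5 and above it in 2. The members inside include NMRK2, which had 0 TPM in ADL 3 and in every RES lamb. The share over all genes was not taken, and nothing is read from these counts. Bile duct markers summed to 11.7 to 90.6 TPM in RES, highest in RES 4, and to 32.4 to 121 TPM in ADL, highest in ADL 3. Of them SPP1, which other cells also express, was high in the same lambs, at 81.9 TPM in RES 4 and 1.85 to 4.77 TPM in the other RES lambs, against 79.0 TPM in ADL 3 and 11.6 to 33.0 TPM in the other ADL lambs. Without SPP1 the other 6 bile duct markers summed to 8.74 to 20.3 TPM in RES, lowest in RES 4, and to 20.8 to 48.0 TPM in ADL, highest in ADL 1. The neutrophil markers summed to 13.9 to 22.1 TPM in RES and 8.93 to 33.4 TPM in ADL, highest in RES 4 and ADL 3. Without S100A9 they summed to 9.44 to 13.6 TPM in RES, highest in RES 3, and to 7.09 to 19.8 TPM in ADL, highest in ADL 3. Most of the 19.8 TPM was S100A8, at 13.7 TPM in ADL 3 and 3.3 to 5.25 TPM in the other ADL lambs. CSF3R and MPO were also highest in ADL 3 among ADL lambs, whereas CXCR2, at 1.88 TPM, lay within the other ADL lambs. The sums without SPP1 and without S100A9 were taken after the values had been seen. The part of these markers in the members' values was not tested.

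Among members, ACMSD and TDO2 varied together over the lambs, and TPH1 varied against them. NMRK2 was at 0 TPM in all lambs but ADL 1, ADL 2 and ADL 4, so its correlation with ACMSD mainly sets these lambs apart from the rest. Among these lambs both genes were lowest in ADL 2, but NMRK2 was highest in ADL 1 and ACMSD in ADL 4. Over the 8 lambs, Pearson's r of log2(TPM + 0.5) with ACMSD was 0.90 for TDO2, 0.91 for NMRK2, -0.80 for KYNU and -0.97 for TPH1. These are descriptions with n = 8, they include the difference between the groups, and all values of a lamb share 1 library. HAAO and KMO had an r of 0.80 with each other and of 0.24 and 0.12 with ACMSD. Without ADL 3 (n = 7), r with ACMSD was 0.90 for TDO2, 0.93 for NMRK2, -0.83 for KYNU and -0.97 for TPH1, and HAAO and KMO had an r of 0.65.

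**Figure D4:**
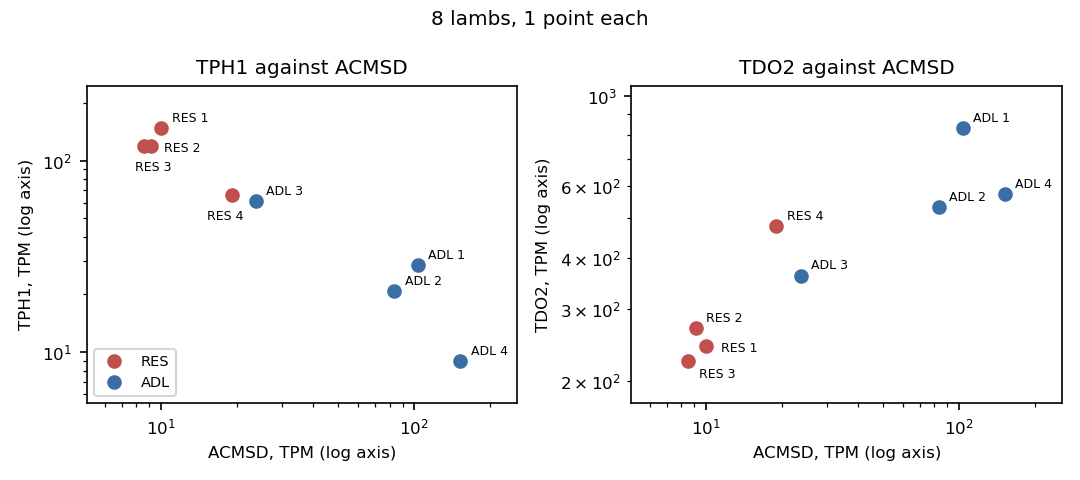
TPM of TPH1 (left) and TDO2 (right) against TPM of ACMSD on log axes, 1 point per lamb (RES red, ADL blue). Lambs with more ACMSD tended to have less TPH1 and more TDO2, and RES 4 and ADL 3 lie between the other RES and the other ADL lambs in the left plot.

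By the same measure, the 5 named genes whose pattern was most like that of ACMSD were the transporter ABCC6 (r = 0.975), the reticulocalbin RCN1 (0.974), the methyltransferase GNMT (0.972), the DNA break repair protein TP53BP1 (0.969) and the transcription factor ELK3 (0.968), each over 8 lambs. GNMT, which transfers a methyl group to glycine, had 17.6, 14.9, 17.6 and 34.7 TPM in RES 1 to RES 4, against 458, 529, 23.3 and 616 TPM in ADL 1 to ADL 4. ABCC6 had 35.7, 35.6, 31.4 and 46.4 TPM in RES 1 to RES 4, against 95.1, 106, 38.8 and 118 TPM in ADL 1 to ADL 4. In both, RES 4 was the highest RES lamb and ADL 3 the lowest ADL lamb, as in ACMSD. Since these genes were picked by their likeness to ACMSD over the same lambs, the shared order is no separate result.

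The other genes of the pathway were taken from 6 lists of 68 names, of which 63 were found in the table and 55 were tested. None of the 55 passed with 8 lambs (limma, 0 higher and 0 lower), and without ADL 3 there were 3 higher and 1 lower. These 4 are 7.27% of the 55, beside 10.0% of all genes called without ADL 3. Uptake and first steps held 6 tested genes, with a median log2 fold change of 0.10 (-0.01 without ADL 3). The 1 that passed without ADL 3 was SLC16A10, a transporter of aromatic amino acids, which fell by 0.91 (SE 0.18, limma adjusted p = 0.0247). It had 17.4, 17.7, 13.4 and 14.2 TPM in RES 1 to RES 4, against 22.5, 34.1, 21.0 and 33.8 TPM in ADL 1 to ADL 4, with no overlap and with ADL 3 near its own group. The call was lost after median-of-ratios rescaling (limma adjusted p = 0.0672).

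None of the 5 genes that transaminate kynurenines or oxidise glutarate passed in either fit, and the smallest p was that of KYAT1, with 14.5 ± 1.97 TPM in RES and 20.5 ± 6.46 TPM in ADL (limma adjusted p = 0.578). Their median log2 fold change was -0.05 (-0.08 without ADL 3). The serotonin list had 3 tested genes with a median of 0.18 (0.08 without ADL 3), and none passed. Its smallest p was that of MAOA, a monoamine oxidase that breaks serotonin down, with 3.01 ± 0.582 TPM in RES and 4.48 ± 1.09 TPM in ADL (log2 fold change -0.49, limma adjusted p = 0.496; -0.64 and 0.0529 without ADL 3). MAOB, the other monoamine oxidase of the list, was read at far higher levels and leaned the other way. It had 196 ± 20 TPM in RES and 174 ± 24.2 TPM in ADL (log2 fold change 0.18, limma adjusted p = 0.76), and was named after its values had been seen. DDC, the decarboxylase that acts after TPH1, was also named after its values had been seen. It had 15.2, 20.7, 16.0 and 13.7 TPM in RES 1 to RES 4, against 13.5, 4.13, 14.9 and 8.06 TPM in ADL 1 to ADL 4. The groups overlapped in DDC, which lay at 0.80 on the log2 scale with 8 lambs (SE 0.35; adjusted p = 0.503 in limma) and at 1.02 without ADL 3 (limma adjusted p = 0.0882).

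NAD synthesis outside the members held 12 tested genes with a median log2 fold change of 0.15 (0.11 without ADL 3), of which 2 rose without ADL 3, where 2.42% of all genes were called higher. NMRK1, the nicotinamide riboside kinase of most tissues, had 68.8, 65.3, 74.7 and 91.3 TPM in RES 1 to RES 4, against 30.8, 33.6, 90.5 and 59.3 TPM in ADL 1 to ADL 4. It was read in every lamb and exceeded NMRK2 throughout. Without ADL 3 it rose by 0.90 on the log2 scale (SE 0.24, limma adjusted p = 0.0484), while with 8 lambs the log2 fold change was 0.61 (limma adjusted p = 0.596) and without both ADL 3 and RES 4 it was 0.81 (limma adjusted p = 0.0828). NT5E, an ectoenzyme that can release nicotinamide riboside from its nucleotide, had 28.6, 30.3, 26.1 and 16.5 TPM in RES 1 to RES 4, against 10.5, 13.1, 13.4 and 15.4 TPM in ADL 1 to ADL 4. The groups did not overlap, and without ADL 3 it rose by 0.92 (SE 0.23, limma adjusted p = 0.0423).

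Among 19 tested users of NAD and clearers of nicotinamide (median log2 fold change 0.09, and 0.06 without ADL 3), AOX1 rose without ADL 3 and no other gene passed in that fit or with 8 lambs. AOX1, which oxidises methylated nicotinamide among many substrates, had 885, 690, 600 and 422 TPM in RES 1 to RES 4, against 395, 250, 360 and 235 TPM in ADL 1 to ADL 4. Every RES lamb was above every ADL lamb. AOX1 had a log2 fold change of 1.05 (SE 0.27; adjusted p = 0.281 in limma), and of 1.14 without ADL 3 (SE 0.28, limma adjusted p = 0.0424). The authors' deposited table lists adjusted p-values of 0.0108 for AOX1, 0.00914 for NT5E and 0.0293 for SLC16A10. NNT, which passes hydride between NADH and NADP in mitochondria, is in the same list and was named after its values had been seen. It had 94.2, 90.6, 121 and 57.6 TPM in RES 1 to RES 4, against 62.2, 58.1, 51.7 and 57.0 TPM in ADL 1 to ADL 4. RES 4 lay within the ADL range and the other RES lambs above it. NNT had a log2 fold change of 0.62 with 8 lambs (limma adjusted p = 0.416) and of 0.57 without ADL 3 (limma adjusted p = 0.14), and it rose by 0.77 without both ADL 3 and RES 4 (SE 0.15, limma adjusted p = 0.024). Its adjusted p in the authors' deposited table is 0.0349.

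None of 10 tested transcription regulators passed with 8 lambs or without ADL 3, and their median log2 fold change was -0.17 (-0.30 without ADL 3). The smallest p was that of CEBPB, a factor of the acute response, with 36.8 ± 15.3 TPM in RES and 70.6 ± 34.6 TPM in ADL (log2 fold change -0.89, limma adjusted p = 0.504). Without ADL 3 it was at -1.19 (limma adjusted p = 0.067), and without both ADL 3 and RES 4 it fell by 1.43 (SE 0.30, limma adjusted p = 0.0336).

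LOC101111049, annotated as nicotinamide N-methyltransferase in the deposited table, was looked up after the symbol NNMT had been found missing and is not counted as a member. It had 0.866, 1.38, 1.34 and 5.73 TPM in RES 1 to RES 4, against 1.15, 2.33, 24.3 and 5.71 TPM in ADL 1 to ADL 4. It was highest in ADL 3, with RES 4 and ADL 4 next, and its adjusted p in the authors' deposited table is 0.503. LOC106991616, annotated as like that enzyme, had 0 to 1.1 TPM in RES and 0 to 5.22 TPM in ADL, also highest in ADL 3.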

How the data were processed

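RNA was purified from liver pieces kept in RNAlater, and polyadenylated RNA was sequenced from both ends, per the labels' protocols. The submitters' processing notes name bcl2fastq 1.8.4 and DESeq2 1.12.4. The genome build, strand setting, aligner and read counter are not given here in the sources used. The deposited values are the authors' TPM per lamb. The authors' deposited comparison gives, per the file headers, mean normalized read signal, shrunken log2 fold change, its SE and a test score, p-value and adjusted p-value. Whole reads per gene were recovered from TPM times gene length (100% of values above 0 whole within 0.001 reads). Reads shared with similar or overlapping genes were not tested. Limits from counting cover counting error only.

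The test was two-sided limma 3.58.1 in R 4.3.3, with a trended eBayes prior, on log2(TPM + 0.5) for every gene whose TPM averaged 1 or more. P-values were adjusted by Benjamini-Hochberg over all these genes, with a threshold of 0.05. A pseudocount understates changes of low genes. P-values set the difference between the groups against the spread between lambs, with each gene's spread drawn towards a trend over all genes. The limma fit was first run on simulated data with known fold changes. These were drawn gene by gene, with no lamb that stands apart as ADL 3 does, so they do not bear on calls that depend on ADL 3. Pathway and marker names were matched by symbol (61 of 68 and 72 of 80), then by Entrez identifier (2 and 5). The named genes are all members, pathway list genes that passed with 8 lambs or without ADL 3 (otherwise the one with the smallest p), and the 5 genes most like ACMSD. Members, lists and the interest in ADL 3 were chosen with earlier results of these data known. Alternatives were pseudocounts of 0.1 and 1, other filters, median-of-ratios rescaling, voom on recovered reads, lamb number as a replicate block and leaving out each lamb. The settings that combine ADL 3 with another choice were added after seeing the data.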

Additional observations from a re-analysis of the deposited data

Results flagged for a closer look

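In 31 groups of 4 lambs (16 genes), 2 values lay far from the rest of their group, where chance flags about 1 group in 20. These 2 flags are near the number that chance alone would give. ACMSD in RES 4, at 19.0 TPM, was separated from the other RES lambs (8.54 to 10.0 TPM) by a gap of 0.856 of the group's range. KMO in ADL 3, at 11.0 TPM, was separated from the other ADL lambs (49.3 to 54.6 TPM) by a gap of 0.879 of the range. Both are among the values in which RES 4 and ADL 3 departed from their groups, and no cause was tested.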

How the results depend on the processing

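With 8 lambs, 1 gene of all tested passed, and no member did. The count was 0 without the filter on low values, after median-of-ratios rescaling, with voom on recovered reads and with lamb number as a replicate block, and ran from 0 to 1382 when a lamb was left out (1382 without ADL 3, 49 without RES 4, and 0 or 1 otherwise). Added after seeing the data, leaving out ADL 3 gave 1151 genes with median-of-ratios rescaling and 106 with lamb number as a replicate block, and leaving out both ADL 3 and RES 4 gave 1145. No label pairs lambs by number, but the numbers follow slaughter age within each group. ADL 1 to ADL 4 were 33, 35, 36 and 36 days old, and RES 1 to RES 4 were 33, 33, 35 and 36 days old. Deviations of same-numbered lambs from their group means correlated across genes at 0.112, -0.00143, -0.0439 and 0.159. RES 1 and RES 4 were closest to the ADL lamb of their own number, and RES 2 and RES 3 were not. A part of age in this was not tested. Over 9 members and 18 alternatives, 136 of 161 values kept their direction and side of the threshold, 15 passed it and 10 changed sign. The 15 that passed were all in settings that leave out ADL 3, and no member passed in a setting that keeps it. Those that changed sign were all in KMO and HAAO: KMO was at 0.35 with 8 lambs, up to 0.56 with another lamb left out (ADL 2), -0.20 without ADL 3, -0.05 with rescaling besides, -0.19 with the block besides and -0.01 without ADL 3 and RES 4; HAAO was at 0.04 with 8 lambs, -0.05 without RES 1, -0.29 without RES 2, up to 0.31 with another lamb left out (RES 3), -0.39 without ADL 3, -0.24 with rescaling besides, -0.12 with the block besides and -0.24 without ADL 3 and RES 4. The cause was not tested. ACMSD ran from -3.50 to -2.36 and TPH1 from 1.70 to 2.84. With the block and without ADL 3, ACMSD and TPH1 each had an adjusted p of 0.0169 (limma) and no other member passed. NMRK2 had no value under the filter of 1 TPM in at least 4 lambs. With up to 4 lambs a group and 1 lamb that decides most calls, a member that did not pass is not shown to be equal in both groups.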
